A study of Arabidopsis thaliana with 2 samples.

Results

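NAC transcription factor genes were examined for peaks of DNA binding by 2 MADS-domain protein complexes in the Arabidopsis thaliana genome. The members are the protein-coding genes of the TAIR10.1 RefSeq table whose symbol or synonym is NAC or ANAC followed by digits only. This rule found 100 genes among 27444 protein-coding genes on chromosomes 1 to 5, 81 by their symbol and 19 by a synonym alone. The members' proteins were not checked for the NAC domain itself, so the family label rests on the names.

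NAC proteins are a plant-specific family of transcription factors named after the petunia gene NAM and the Arabidopsis genes ATAF1, ATAF2 and CUC2. They carry a conserved DNA-binding domain at the amino-terminal end and a variable regulatory part behind it. Family members set organ boundaries, build the thickened walls of xylem and fibres, shape the root cap, time leaf senescence and act in the responses to drought, salt and abscisic acid. SEPALLATA3 (SEP3) and AGAMOUS (AG) are MADS-domain proteins of floral organ identity, and MADS dimers bind DNA elements known as CArG boxes.

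The assay was sequential DNA affinity purification sequencing: purified protein complexes capture fragments of bare genomic DNA that are then sequenced. The labels give untreated seedlings aged 2 weeks as the source of the DNA. The complexes were SEP3Δtet3M-AG and SEP3Δtet-AGΔtet, both altered in tetramer formation. The genotype label reads SEP3Δtet3M-AG for both samples, so the complexes are told apart by their titles, and the labels do not say what 3M means. Each complex has 1 peak list, of 1681 peaks for SEP3Δtet3M-AG and 2277 for SEP3Δtet-AGΔtet. Every peak is 400 bp wide and is given as a position without a score.

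With 1 list per complex and unknown read depth, no difference between the complexes could be tested, and a peak counts only as present or absent. Bare DNA carries no chromatin and no cell type, so a peak near a gene is a place of binding outside the plant and gives no level of expression. Unless another limit is named, a NAC gene has a peak here when the midpoint of a peak falls between its ends or no more than 3000 bp beyond them. Strand was not used here, so the side upstream of a gene is not told apart from the side downstream. Intervals are exact 95% Clopper-Pearson intervals and cover the counting of genes or peaks only. The family was chosen with earlier results of these lists known, and no share was tested against other genes.

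Peaks of either list lay near 28 of the 100 NAC genes (28%, interval 19.5 to 37.9), against 19.2% of all protein-coding genes. They include 4 of the 15 listed xylem and secondary wall regulators (NAC075, NAC076, NAC026 and NAC083). Also included are 3 of the 7 listed stress and abscisic acid genes (NAC032, NAC055 and RD26). The 3 organ boundary genes, CUC1, CUC2 and CUC3, had none, and counts this small do not set the groups apart. With SEP3Δtet3M-AG, 17 NAC genes had a peak (17%, interval 10.2 to 25.8), where 12.0% of all protein-coding genes had one. With SEP3Δtet-AGΔtet, 26 did (26%, interval 17.7 to 35.7), against 15.8% of all protein-coding genes. The share of all genes thus lies within the interval of the NAC share in the former list and below it in the latter.

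Peaks of both lists were found at 15 NAC genes (15%, interval 8.64 to 23.5), against 8.65% of all protein-coding genes. In the SEP3Δtet3M-AG list alone, 2 NAC genes had a peak (2%, interval 0.243 to 7.04), against a background of 3.39%. In the SEP3Δtet-AGΔtet list alone, 11 had one (11%, interval 5.62 to 18.8), against 7.15%. The background lay within the interval for each list alone. Of the 17 NAC genes found with SEP3Δtet3M-AG, 15 were found with the other complex too (88.2%, interval 63.6 to 98.5). The share over other genes was 71.8%, which lies within that interval. Seen from the longer SEP3Δtet-AGΔtet list, 15 of 26 NAC genes were common to both (57.7%, interval 36.9 to 76.6), where other genes gave 54.7%.

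**Figure D1:**
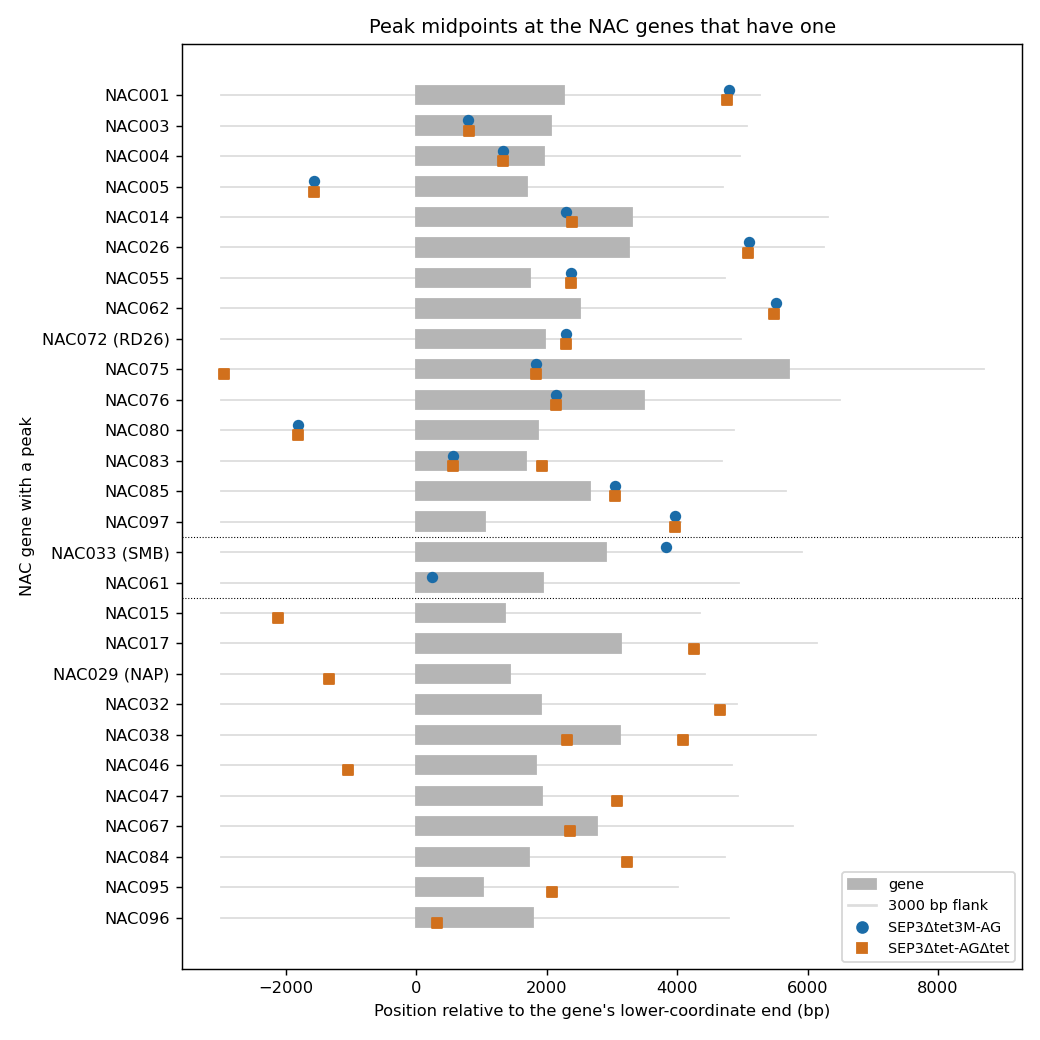
Peak midpoints (circles, SEP3Δtet3M-AG; squares, SEP3Δtet-AGΔtet) at the 28 NAC genes that have one, in bp from the end of the gene with the lower coordinate, with each gene as a grey bar and its 3000 bp flanks as a thin line. Dotted lines separate the 15 genes found in both lists, the 2 found with SEP3Δtet3M-AG only and the 11 found with SEP3Δtet-AGΔtet only, and in the top block circles and squares nearly coincide.

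The NAC genes with a peak are described below by known role, in groups of 3 to 15 genes. Counts this small are no result about a group, and each stands beside the share of all protein-coding genes. The groups are not complete: the membrane-tethered factor NTM1 (NAC068), which had no peak, and NAC096, which acts in abscisic acid responses, stand in none of them.

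Of the 15 xylem and secondary wall regulators, 4 had peaks of both complexes (8.65% of all protein-coding genes) and none had a peak of 1 complex alone (3.39% and 7.15%). A peak in either list was thus found at 4 of 15 genes, close to the 28 of 100 in the whole family. NAC076 (VND2, AT4G36160), a member of the VND group that switches on vessel formation, held a peak at chromosome 4, 17112595 to 17112994 (SEP3Δtet3M-AG). The SEP3Δtet-AGΔtet peak in this gene began at 17112591, so the midpoints lay 4 bp apart. NAC075 (AT4G29230), which acts upstream of VND7, is with 5710 bp the longest of the genes with a peak.

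Inside NAC075 the SEP3Δtet3M-AG peak lay at chromosome 4, 14411409 to 14411808. The matching SEP3Δtet-AGΔtet midpoint was 1 bp away. A further SEP3Δtet-AGΔtet peak, at 14406630 to 14407029, lay 2943 bp outside NAC075 and had no counterpart in the other list, and the gene nearest to it was PFK1. NAC083 (VNI2, AT5G13180), a repressor that binds VND7, likewise combined a common peak with an additional one.

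The common peak lay inside NAC083, where its SEP3Δtet3M-AG form spanned chromosome 5, 4196620 to 4197019. Its SEP3Δtet-AGΔtet counterpart was 4 bp away. The additional SEP3Δtet-AGΔtet peak, at 4197983 to 4198382, lay 242 bp outside the gene. Its midpoint was 1363 bp from the nearest midpoint of the other list, the shortest such distance among the peaks at NAC genes that were not shared. NAC026 (VND5, AT1G62700), another vessel regulator, had its peaks outside the gene, at 1841 bp with SEP3Δtet3M-AG and 1839 bp with SEP3Δtet-AGΔtet, and was itself the nearest gene to both.

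The other 11 genes of the xylem and wall group had no peak within 3000 bp in either list. Among them are VND1, VND3, VND4, VND6 and VND7, the fibre wall switches NST1, NST2 and NAC012 (also called NST3), the wall regulators NAC010 and NAC073, and XND1, which restrains xylem differentiation. VND7 (NAC030) was the first member beyond the limit with SEP3Δtet3M-AG: the nearest midpoint lay 3193 bp away in that list and 3199 bp away in the SEP3Δtet-AGΔtet list.

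Of the 7 listed genes of stress and abscisic acid responses, 2 had peaks of both complexes (8.65% of all protein-coding genes) and 1 had a peak with SEP3Δtet-AGΔtet alone (7.15%). NAC055 (AT3G15500), which acts in drought, jasmonate and abscisic acid responses, had peaks 628 bp outside the gene with SEP3Δtet3M-AG (chromosome 3, 5236625 to 5237024) and 630 bp with SEP3Δtet-AGΔtet. RD26 (NAC072, AT4G27410), a drought-induced activator of abscisic acid responses, had peaks 318 bp and 316 bp outside the gene (chromosome 4, 13709289 to 13709688 with SEP3Δtet3M-AG). At each of these genes the midpoints of the lists lay 2 bp apart.

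NAC055 and RD26 are close relatives of NAC019, with overlapping roles, and NAC019 had no peak within 3000 bp in either list. Its nearest midpoints were 43074 bp away with SEP3Δtet3M-AG and 63950 bp away with SEP3Δtet-AGΔtet. In the ATAF group of stress regulators, NAC032 (AT1G77450) had a peak with SEP3Δtet-AGΔtet alone, 2738 bp outside the gene and nearer to AT1G77460. ATAF1, ATAF2 and NAC102 had none.

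Membrane-tethered NAC factors, which are held at a membrane until a signal releases them, had a peak in either list at 3 of the 11 listed genes, against 19.2% of all protein-coding genes and 28 of 100 in the family. NAC014 (AT1G33060) had peaks of both complexes inside the gene, and that of SEP3Δtet3M-AG spanned chromosome 1, 11977403 to 11977802. The SEP3Δtet-AGΔtet peak lay 100 bp away, the widest gap between midpoints among the shared peaks at NAC genes, where the median was 4 bp in each list.

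NAC062 (NTL6, AT3G49530), which is released in the cold and acts in pathogen defence, lay at the edge of the window. Its midpoints were 2995 bp away with SEP3Δtet3M-AG and 2963 bp with SEP3Δtet-AGΔtet, the largest distances counted in either list. In all, 5 protein-coding genes lay within 3000 bp of this peak, and AT3G49550 was the nearest. NAC017 (AT1G34190), a regulator of the response to mitochondrial dysfunction, had a peak with SEP3Δtet-AGΔtet alone, 1117 bp outside the gene.

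Of the 4 root cap regulators, 1 had a peak with SEP3Δtet3M-AG alone (3.39% of all protein-coding genes) and 1 with SEP3Δtet-AGΔtet alone (7.15%). SMB (NAC033, AT1G79580), which drives maturation of the lateral root cap, had a peak with SEP3Δtet3M-AG alone, 922 bp outside the gene at chromosome 1, 29944436 to 29944835. NAC015 (BRN1, AT1G33280), which acts redundantly with BRN2 and SMB in root cap maturation, had a peak with SEP3Δtet-AGΔtet alone, 2123 bp outside the gene and nearer to AT1G33270. BRN2 (NAC070) and FEZ (NAC009), which promotes divisions of root cap stem cells, had none. FEZ was the member farthest from any peak of either list, at 160430 bp with SEP3Δtet3M-AG and 102386 bp with SEP3Δtet-AGΔtet.

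Of the 7 senescence regulators, 2 had a peak, in each case with SEP3Δtet-AGΔtet alone (7.15% of all protein-coding genes). NAP (NAC029, AT1G69490), a promoter of leaf senescence whose name in the gene table is activated by AP3/PI, had a peak 1336 bp outside the gene at chromosome 1, 26120545 to 26120944. NAC046 (AT3G04060), which promotes chlorophyll breakdown, had a peak 1048 bp outside the gene at chromosome 3, 1052113 to 1052512. Another gene was nearer to both peaks, AT1G69485 at NAP and AT3G04050 at NAC046, so neither is counted when each peak is given to its nearest gene only.

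The senescence genes JUB1 (NAC042), NAC092 (also known as ORE1), NAC059, NAC016 and NAC087 had no peak. NAC092 lay just outside the limit with SEP3Δtet-AGΔtet, at 3215 bp, and its nearest SEP3Δtet3M-AG midpoint was 62591 bp away. JUB1, which delays senescence, was 4035 bp from a SEP3Δtet3M-AG midpoint and 4025 bp from a SEP3Δtet-AGΔtet midpoint.

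Of the 6 listed targets of the microRNA miR164, NAC080 alone had a peak in either list, against 19.2% of all protein-coding genes. At NAC080 (AT5G07680) the peaks of the lists were identical, at chromosome 5, 2433782 to 2434181, 1814 bp outside the gene, and AT5G07670 was nearer. NAC100, the closest relative of NAC080, was the first member beyond the limit with SEP3Δtet-AGΔtet, at 3067 bp. CUC1 and CUC2, which are both miR164 targets, and CUC3, which is not, form the organ boundary group. Their nearest SEP3Δtet-AGΔtet midpoints lay at 5979 bp for CUC1, 5140 bp for CUC2 and 4003 bp for CUC3. With SEP3Δtet3M-AG they lay at 99882 bp, 5142 bp and 3986 bp, so that CUC2 and CUC3 had midpoints of both lists at nearly the same distance and CUC1 did not.

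Of the 3 DNA damage genes, 1 had a peak (19.2% of all protein-coding genes in either list). NAC085 (AT5G14490), which with NAC044 halts the cell cycle after DNA damage, had peaks of both complexes, at 383 bp with SEP3Δtet3M-AG (chromosome 5, 4673142 to 4673541) and 373 bp with SEP3Δtet-AGΔtet. NAC044 had none, nor had SOG1 (NAC008), the master regulator of the plant DNA damage response. None of the 3 phloem genes (NAC020, NAC045 and NAC086) had a peak in either list. The same held for the 3 genes grouped here under seed coat (NAM, NAC025 and NAC056). The flowering-time group of 4 genes, LOV1, NTL8, NAC050 and NAC052, had none either. Counts of 0 in 3 or 4 genes say little, since most genes of the genome have no peak.

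**Figure D2:**
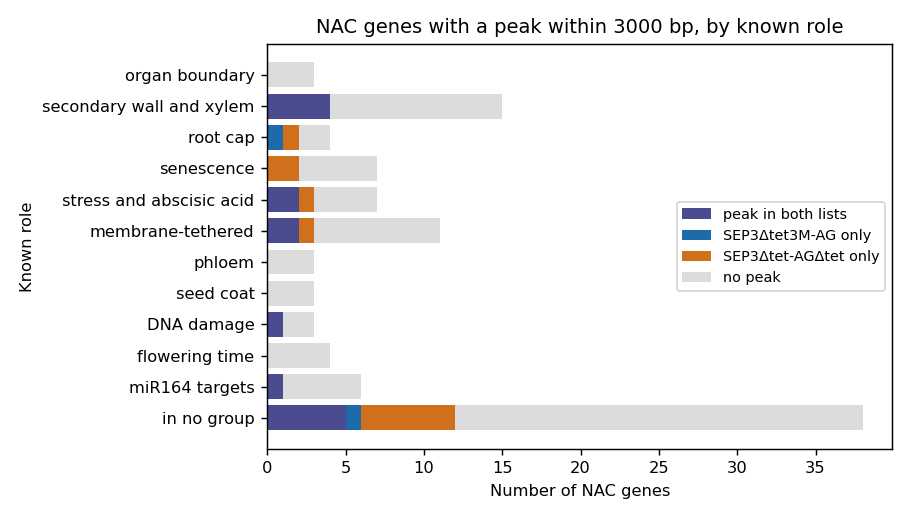
Number of NAC genes (horizontal axis) in each group by known role (vertical axis), coloured by whether the gene had a peak within 3000 bp in both lists, in 1 list only or in neither. A gene can stand in more than 1 group. Of the 15 xylem and secondary wall genes, 4 had peaks in both lists (8.65% of all protein-coding genes). Of the 7 senescence genes, 2 had a peak with SEP3Δtet-AGΔtet only (7.15%). The stress and membrane-tethered groups held genes of both kinds, and counts this small do not set the groups apart.

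The 38 members in no group included 12 with a peak in either list (19.2% of all protein-coding genes), 5 of them in both lists (8.65%). NAC003 (AT1G02220), NAC004 (AT1G02230) and NAC005 (AT1G02250) are neighbours on chromosome 1, and all had peaks of both complexes. NAC003 had its own peak inside the gene, at 429249 to 429648 with SEP3Δtet3M-AG, with the SEP3Δtet-AGΔtet midpoint 15 bp away. The peak inside NAC004, at 436100 to 436499 with SEP3Δtet3M-AG and 1 bp away with SEP3Δtet-AGΔtet, is the same peak that is counted for NAC005, from which it lay 1561 bp away. The 15 NAC genes found in both lists therefore rest on 14 distinct peaks per list.

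NAC001 (AT1G01010) and NAC097 (AT5G50820) also had peaks of both complexes, far from the gene. At NAC001 the distances were 2524 bp with SEP3Δtet3M-AG and 2496 bp with SEP3Δtet-AGΔtet, and the nearest gene was ARV1. At NAC097 they were 2917 bp and 2910 bp, and AT5G50830 was nearer.

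Among members in no group, NAC061 (AT3G44350) had a peak with SEP3Δtet3M-AG alone, inside the gene at chromosome 3, 16022617 to 16023016. With SEP3Δtet-AGΔtet alone, NAC038 (AT2G24430) had 2 peaks, the largest number at a NAC gene in either list and matched only by NAC075 and NAC083 in the same list. These lay inside the gene at chromosome 2, 10385605 to 10386004, and 965 bp outside it at 10387391 to 10387790. NAC038 was the only member on chromosome 2 with a peak, of 8 there.

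NAC067 (AT4G01520) and NAC096 (AT5G46590) each held a peak that only the SEP3Δtet-AGΔtet list contains. These lay inside the genes, at chromosome 4, 658571 to 658970, and at chromosome 5, 18905379 to 18905778. NAC047 (AT3G04070), a regulator of leaf movement under waterlogging, had one 1150 bp away, and was the gene nearest to it. NAC084 and NAC095 had peaks 1493 bp and 1062 bp away, with KNU and AT5G41100 nearer. KNU is a zinc finger gene that ends the activity of the floral meristem.

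Inside the gene lay a peak at 7 NAC genes with SEP3Δtet3M-AG (7%, interval 2.86 to 13.9), against 3.17% of all protein-coding genes. The number was 9 with SEP3Δtet-AGΔtet (9%, interval 4.20 to 16.4), against 3.80%. Both lists had a peak inside 6 of these genes, namely NAC003, NAC004, NAC014, NAC075, NAC076 and NAC083, against 2.14% of all protein-coding genes. No exon, intron or untranslated region is assigned to these peaks, because the table used gives gene ends only.

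Within 1000 bp, 11 NAC genes had a peak with SEP3Δtet3M-AG (11%, interval 5.62 to 18.8), against 6.61% of all protein-coding genes, and 12 with SEP3Δtet-AGΔtet (12%, interval 6.36 to 20.0), against 8.69%. The share of all genes lay within the interval of the NAC share in both lists. The lists thus held 11 and 12 NAC genes at this limit, where they held 17 and 26 at 3000 bp. At the 1000 bp limit 9 genes had a peak in both lists (background 4.68%): the 6 genes with peaks inside, and NAC055, RD26 and NAC085.

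**Figure D3:**
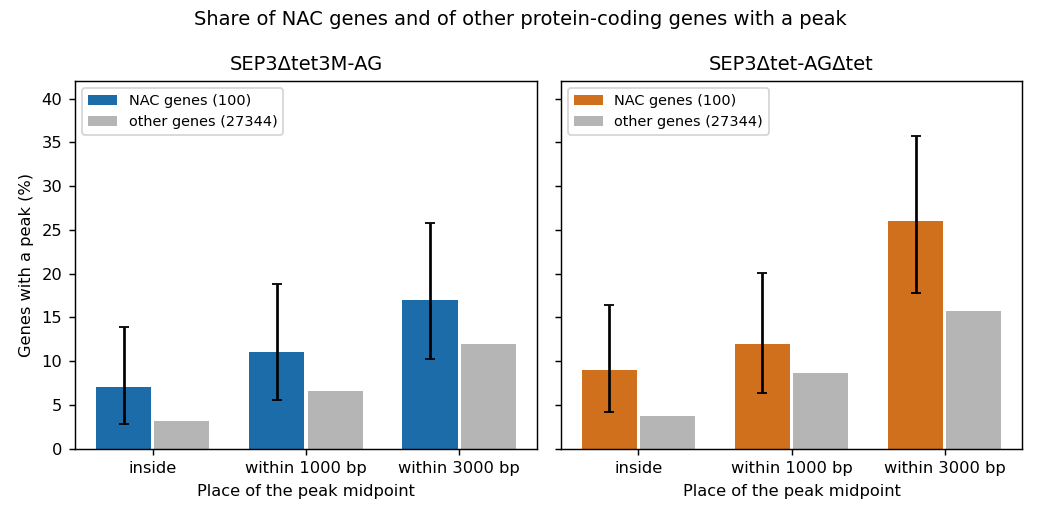
Share of genes (vertical axis, %) with a peak midpoint inside the gene, within 1000 bp or within 3000 bp (horizontal axis), for the 100 NAC genes (coloured, with exact 95% intervals) and the 27344 other protein-coding genes (grey). The NAC share reached 17% with SEP3Δtet3M-AG and 26% with SEP3Δtet-AGΔtet at 3000 bp, and 11% and 12% at 1000 bp.

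Distance from the gene was then set beside the list in which the peak occurred. Of the 11 NAC genes with a peak in the SEP3Δtet-AGΔtet list alone, 3 had it inside or within 1000 bp (27.3%, interval 6.02 to 61.0), namely NAC038, NAC067 and NAC096. Of the 15 with peaks in both lists, 9 did (60%, interval 32.3 to 83.7). These intervals overlap, and no difference between the groups was tested. Over other genes the shares were 52.4% with SEP3Δtet-AGΔtet alone and 58.7% in both lists. With SEP3Δtet3M-AG alone, both of the 2 NAC genes had the peak inside or within 1000 bp, where 53.1% of other genes did.

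The NAC gene was the nearest protein-coding gene for 12 of the 16 distinct SEP3Δtet3M-AG peaks (75%) and for 16 of the 28 distinct SEP3Δtet-AGΔtet peaks (57.1%). Counted as pairs of a gene and a peak, the shares were 70.6% and 55.2% for NAC genes, and 44.8% and 45.3% for other genes. When each peak was given to its nearest gene only, 12 NAC genes kept a SEP3Δtet3M-AG peak, where 5.54% of other genes had one, and 14 kept a SEP3Δtet-AGΔtet peak, where 7.46% of other genes had one. With that rule 10 NAC genes had a peak in both lists, where 3.9% of other genes did. NAC038, NAC047, NAC067 and NAC096 had one with SEP3Δtet-AGΔtet alone, 4% of NAC genes, which is near the 3.56% of other genes. NAC015, NAC017 and NAC032 are among those no longer counted.

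Shared peaks, which overlap the other list by 1 bp or more, numbered 14 of the 16 SEP3Δtet3M-AG peaks at NAC genes (87.5%, interval 61.7 to 98.5). At other genes 68.6% of that list's peaks were shared, which lies within the interval. In the SEP3Δtet-AGΔtet list 14 of 28 were shared (50%, interval 30.7 to 69.4), against 50.1% at other genes. The 2 SEP3Δtet3M-AG peaks without a partner were those at SMB and NAC061, and the nearest midpoints of the other list lay 12637 bp and 22522 bp away.

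Gene length and surroundings of the NAC genes were set beside those of other genes, and whether they bear on the shares was not tested. The median NAC gene was 1942 bp long, against 2078 bp for other protein-coding genes. Windows reaching 3000 bp beyond the NAC genes held 20.6 SEP3Δtet3M-AG midpoints per Mb, against 15.45 around other genes. For SEP3Δtet-AGΔtet the values were 36.05 and 21.1 midpoints per Mb. No NAC gene lay in a 500 kb window poor in genes, where 3.82% of other genes lie. Peaks of either list lay near 11 of 32 NAC genes on chromosome 1 and 1 of 8 on chromosome 2. The counts were 5 of 22 on chromosome 3, 4 of 10 on chromosome 4 and 7 of 28 on chromosome 5. Over all chromosomes 19.2% of all protein-coding genes had one. Shares of all genes on single chromosomes were not computed, so these counts show no difference between chromosomes. The median length was 2071 bp for the 15 genes with peaks in both lists, 1837 bp for the 11 with SEP3Δtet-AGΔtet alone and 1932 bp for the 72 without a peak.

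Other transcription factor families, defined in the same way by numbered names, had shares in the same range. Genes of these families that carry no numbered name are not counted here. With SEP3Δtet3M-AG, 12.5% of 72 WRKY genes, 12% of 125 MYB genes, 11.1% of 27 ERF genes, 13.6% of 22 bHLH genes and 21.3% of 47 homeobox genes had a peak within 3000 bp. With SEP3Δtet-AGΔtet the shares were 16.7%, 22.4%, 29.6%, 13.6% and 23.4%. The NAC share of 17% was exceeded by the homeobox genes in the former list, and that of 26% by the ERF genes in the latter. The intervals of all 6 families overlapped in each list, and no difference between families was tested.

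**Figure D4:**
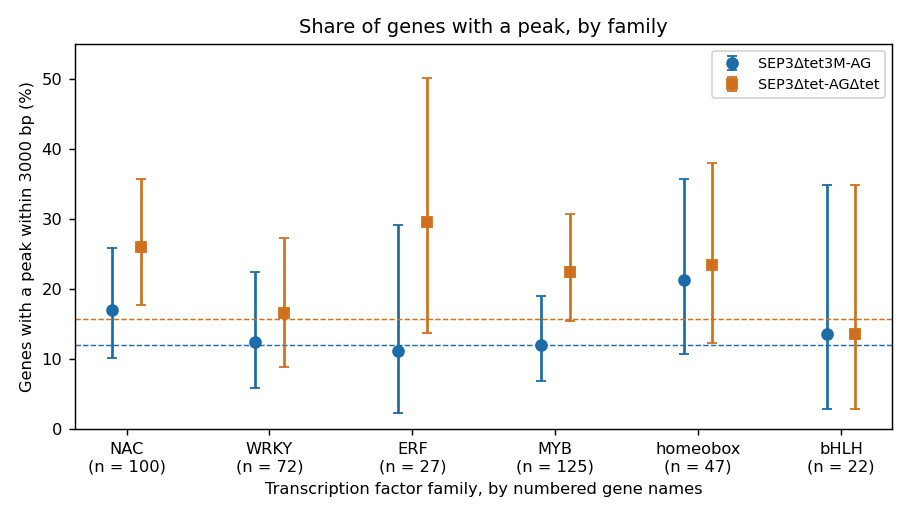
Share of genes with a peak midpoint within 3000 bp (vertical axis, %) for the NAC genes and 5 other transcription factor families (horizontal axis), with exact 95% intervals, for SEP3Δtet3M-AG (circles) and SEP3Δtet-AGΔtet (squares). Dashed lines give the share among protein-coding genes other than NAC, and the intervals of the families overlap in each list.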

How the data were processed

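The deposited files hold peak positions (chromosome, start, end) in 3 columns, without a score. Per the submitters' processing notes, Bowtie2, SAMtools and MACS2 were used; their versions and settings, the genome build, the read depth and any pooling were not given in the sources used here. Peak starts were converted to count from 1. Gene names, ends and lengths came from the TAIR10.1 RefSeq table, and its coordinates are not printed. As a check of fit, protein-coding genes held 52.2% of SEP3Δtet3M-AG midpoints and 46.7% of SEP3Δtet-AGΔtet midpoints. After all peaks were moved by 2000 to 20000 bp either way, they held 57.6 to 60.6% and 59.4 to 61.4%. In both lists the share inside genes was thus lower at the given positions than after every move. The genome build of the peaks was not checked in another way.

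Midpoints were assigned to genes in Python 3.11.15 with pandas 2.3.3, numpy 2.4.6 and scipy 1.17.1, and the assignment was tested on simulated data. The members, the 11 role groups (62 genes) and the alternatives were chosen with earlier results of these data known. Every member with a peak is named, and positions are given mainly for those with peaks of both lists within 1000 bp or with several peaks. Alternatives were other flanks, any-base overlap, nearest gene only, symbols alone, gene-rich windows and stricter sharing. Planned searches of promoter sequences and of protein sequences for the family's domain were not made, and no sequence was used here.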

Additional observations from a re-analysis of the deposited data

How the results depend on the processing

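Of 32 recomputed counts of NAC genes, 25 stayed within 1.5 times the reported count and 7 did not. With a flank of 1000 bp the number with a peak was 11 for SEP3Δtet3M-AG, 12 for SEP3Δtet-AGΔtet, 9 in both lists and 3 with SEP3Δtet-AGΔtet only. In the same order, 6.59%, 8.68%, 4.66% and 4.02% of other protein-coding genes had one. With SEP3Δtet-AGΔtet only, the NAC share was 11% at 3000 bp (interval 5.62 to 18.8), against 7.14% of other genes. At 1000 bp it was 3% (interval 0.623 to 8.52). The share of other genes lay within the NAC interval at both limits, so these counts show neither an excess nor a deficit. The narrower window holds fewer peaks by construction. Giving each peak to its nearest gene left 14 NAC genes for SEP3Δtet-AGΔtet and 4 with that list only, against 7.46% and 3.56% of other genes. Counting members by symbol alone left 1 of 81 genes with SEP3Δtet3M-AG only, since SMB is a member by its synonym. Counting any base of a peak added VND7 in both lists and NAC100 with SEP3Δtet-AGΔtet. The 15 genes in both lists stayed 15 when the peaks had to overlap by 1 bp or by 200 bp or to have midpoints within 100 bp, and outside gene-poor windows. No paired analysis was possible because each complex has 1 list. Without reads or scores, weak and strong peaks cannot be told apart, and a gene without a peak may carry binding below the caller's threshold.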
